A study of Mus musculus and Homo sapiens with 40 samples.

Results

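Untreated p30- and p42-expressing HPC-7 cells were compared by their H3K4me1 peaks. The comparison rests on 4 of the 40 samples of the series, 2 for each cell line, and on 2 of its 11 peak lists, 1 for each line. Peaks on chromosomes 1 to 19 and X were kept, which left 302678 of the 974420 peaks of the series. Peaks of both lines that shared at least 1 bp were merged, which gave 189355 regions, and each region was classed by whether it held peaks of both lines, of p30-expressing cells only (p30 only) or of p42-expressing cells only (p42 only). Both groups were HPC-7, a mouse hematopoietic progenitor line with very low endogenous CEBPA, transduced with a retrovirus that carried CEBPA p30 or CEBPA p42 joined to ERT2, the tamoxifen-responsive part of the estrogen receptor, and then sorted for GFP. Neither group received LPS. The H3K27ac samples set beside them were untreated or had been given LPS at 100 ng/mL for 2 h. The study's methods state that cells with such fusions were given 4-hydroxytamoxifen, which moves the fusion protein into the nucleus, before experiments. The sample labels do not name it for these groups. Each isoform was represented by 1 transduced line, so that isoform and line cannot be told apart.

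CEBPA is a bZIP transcription factor needed for granulocyte and monocyte development, and p30 is the shorter isoform, which lacks N-terminal transactivation domains and predominates in a class of acute myeloid leukemia. H3K4me1, the monomethylated form of lysine 4 of histone H3, is laid down mainly by the methyltransferases MLL3 and MLL4. It marks enhancers whether they are active or only primed, whereas H3K27ac marks the active ones, and at active promoters H3K4me1 is depleted over the start site, where trimethylation takes its place, and flanks it on both sides.

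The labelled cell type was checked at marker loci, as the bases under H3K4me1 peaks within 50 kb of the gene start, with both lists cut to an equal number of peaks. All 12 hematopoietic progenitor markers carried the mark in both lines. Their median was 36.3 kb in p30- and 31.7 kb in p42-expressing cells. Among them, *Runx1*, a founding factor of the blood lineage, had 63.7 and 52.4 kb, and *Cd34*, a surface marker of progenitors, had 60.0 and 41.6 kb. *Erg*, a stem cell factor, was nearly bare, with 1.39 kb in p30- and 0.438 kb in p42-expressing cells. For 12 genes of other tissues the medians were 0.198 and 0.122 kb, and 5 of these genes, such as *Pax6* and *Sox2*, were at 0 in both lines.

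The p30 list held 168028 peaks that covered 112 Mb, with a median width of 405 bp and a median fold enrichment over the local background of 3.32. The p42 list held 134650 peaks that covered 79.9 Mb, with a median width of 375 bp and a median fold of 3.42. The p30 list was therefore the longer one, with slightly wider and no stronger peaks. As whole populations were measured, fewer cells with the mark and less of the mark in each cell cannot be told apart. How many reads stood behind each list is not known, and each list was called on the pooled replicates of its line, so that no difference between them has a replicate check and no test was possible. Most comparisons were repeated with the strongest 134650 peaks of each list (equal number), and the main ones also with p30 peaks taken in order of strength until they covered as many bases as the p42 list (equal bases), which left 80485 p30 peaks. Intervals are 95% intervals that cover counting error over regions, sites or genes only.

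The sequences below show what the regions of a single line looked like where CEBPA bound them. They lie in regions outside promoters that held H3K4me1 of 1 line only and a CEBPA site found in that line with both the anti-CEBPA and the anti-ER antibody and in the other line with neither. There were 35 such p30-only regions and 69 such p42-only regions, 0.0515% and 0.252% of the regions of their classes outside promoters. Each sequence is 200 bases around the CEBPA summit on the plus strand of mm39. Capitals mark a CEBP consensus, TTGCNNAA or TTACNNAA on either strand. For each class the 3 with the best-ranked H3K4me1 peak whose 200 bases overlapped no annotated exon are given, named by the nearest protein-coding start. The p30-only sequences lie at chr3:9699144-9699343 (*Zfp704*), chr16:97295692-97295891 (*Fam3b*) and chr11:67493252-67493451 (*Rcvrn*), each in an intron of an annotated gene. The p42-only sequences lie at chr7:143380778-143380977 (*Dhcr7*) and chr16:55602235-55602434 (*Nfkbiz*), both in an intron of an annotated gene, and at chr2:83936972-83937171 (*Cwc22rt6*), between genes. A strong region of both lines, in an intron of *Hdac4* at chr1:91976219-91976418, stands beside them. It ranked 15 in the p30 and 20 in the p42 list, and its 200 bases held the consensus 3 times. A better-ranked shared region near *Ccr1*, with ranks 2 and 10, held it 1 time and is not printed.
Zfp704, p30 only: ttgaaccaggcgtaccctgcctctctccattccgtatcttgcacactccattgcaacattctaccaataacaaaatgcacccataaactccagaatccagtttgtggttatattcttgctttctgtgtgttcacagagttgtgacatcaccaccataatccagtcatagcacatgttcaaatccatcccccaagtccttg
Fam3b, p30 only: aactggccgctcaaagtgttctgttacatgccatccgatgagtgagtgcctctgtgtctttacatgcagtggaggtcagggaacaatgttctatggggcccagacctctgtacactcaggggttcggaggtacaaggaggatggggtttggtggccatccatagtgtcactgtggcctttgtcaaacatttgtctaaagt
Rcvrn, p30 only: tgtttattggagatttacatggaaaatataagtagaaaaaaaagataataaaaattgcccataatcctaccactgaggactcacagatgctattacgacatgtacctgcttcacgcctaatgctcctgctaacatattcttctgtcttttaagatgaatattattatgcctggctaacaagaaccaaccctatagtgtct
Dhcr7, p42 only: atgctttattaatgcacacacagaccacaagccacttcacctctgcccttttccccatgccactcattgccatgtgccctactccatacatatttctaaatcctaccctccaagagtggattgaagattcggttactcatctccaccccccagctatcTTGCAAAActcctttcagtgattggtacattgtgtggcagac
Nfkbiz, p42 only: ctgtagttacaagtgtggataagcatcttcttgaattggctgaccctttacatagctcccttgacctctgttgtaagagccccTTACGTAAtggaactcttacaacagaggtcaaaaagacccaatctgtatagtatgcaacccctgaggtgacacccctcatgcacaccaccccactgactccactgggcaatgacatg
Cwc22rt6, p42 only: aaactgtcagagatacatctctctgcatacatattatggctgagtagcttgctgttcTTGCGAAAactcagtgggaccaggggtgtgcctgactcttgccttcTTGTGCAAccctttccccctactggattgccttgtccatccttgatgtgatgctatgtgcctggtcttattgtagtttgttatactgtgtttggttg
Hdac4, both lines: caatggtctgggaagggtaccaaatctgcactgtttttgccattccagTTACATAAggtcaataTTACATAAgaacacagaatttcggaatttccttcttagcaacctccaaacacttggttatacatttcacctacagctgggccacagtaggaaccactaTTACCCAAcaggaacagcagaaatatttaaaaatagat

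None of the 3 p30-only sequences held the consensus, and each of the 3 p42-only sequences did. Among the 5 best-ranked of each class outside chromosome 18, those that overlapped an exon included, it was held by 0 p30-only and 4 p42-only sequences. Over all of these regions the consensus was found in 13 of 35 p30-only regions (37.1%, interval 23.2 to 53.7%) and in 47 of 69 p42-only regions (68.1%, 56.4 to 77.9%). The anti-CEBPA sites in the printed p30-only sequences ranked 17253, 31199 and 27162 of 31823 by strength. Those in the p42-only sequences ranked 44048, 7466 and 18708 of 47489. The classes were not matched for strength of the sites, and how far this enters the difference in the consensus was not tested. In untreated cells, H3K27ac peaks overlapped 14 of the 35 p30-only regions in p30- and 14 in p42-expressing cells. Of the 69 p42-only regions they overlapped 16 in p30- and 43 in p42-expressing cells. The acetylation of these p42-only regions was thus mostly seen in the line whose CEBPA bound them. The *Nfkbiz* region is an example, with H3K27ac peaks in p42-expressing cells, untreated and with LPS, and none in p30-expressing cells. *Nfkbiz* encodes IκBζ, a nuclear regulator of secondary LPS response genes. The *Fam3b* and *Rcvrn* regions had H3K27ac peaks in p30-expressing cells only.

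Of the 189355 merged regions, 83250 (44.0%) held peaks of both lines, 75580 (39.9%) were p30 only and 30525 (16.1%) were p42 only. With an equal number of peaks there were 75405 shared, 51611 p30-only and 38582 p42-only regions, which is 45.5%, 31.2% and 23.3% of 165598. With equal bases the order of the line-only classes turned round, with 55944 shared, 19822 p30-only and 59267 p42-only regions. Thus more regions were called in 1 line alone than in both with all peaks, but which line had more of them depended on how many peaks of each list were taken. By bases, 59.5 Mb lay under peaks of both lines, which was 52.9% of the p30 bases and 74.5% of the p42 bases. With equal bases the shared part was 63.1% of each. Requiring strong evidence of presence (q under 1e-05) and no peak at q under 0.05 for absence raised the shared share to 67.3%, with 25110 p30-only and 8838 p42-only regions.

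**Figure D1:**
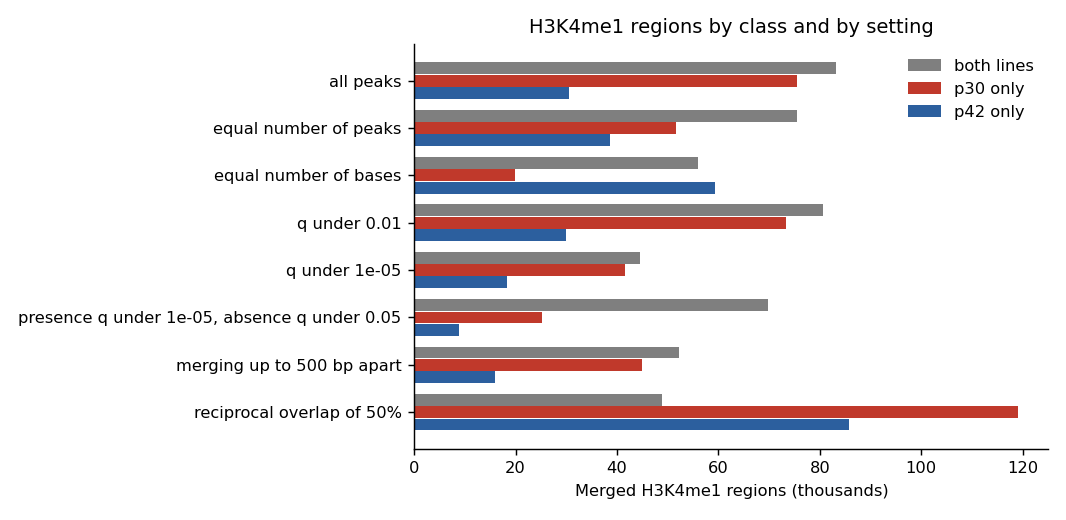
Number of merged H3K4me1 regions (in units of 1000, horizontal axis) with peaks of both lines (grey), of p30-expressing cells only (red) and of p42-expressing cells only (blue), under 8 ways of taking or merging peaks. The p30-only bar is the longer of the line-only bars in each row except that for an equal number of bases, where 19822 p30-only regions stand against 59267 p42-only regions.

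The regions of a single line were short and weak beside the shared ones. The median width was 772 bp for shared, 297 bp for p30-only and 257 bp for p42-only regions. Over 2 kb in width were 11175 shared regions (13.4%), 63 p30-only and 6 p42-only regions. Regions over 2 kb were therefore nearly all shared. Width was not independent of the classing, however. A shared region joins peaks of both lines, whereas each line-only region was a single peak, and a wide peak meets another more easily. How much of the difference in width this made was not tested. The median fold of p30 peaks was 3.82 in shared and 3.02 in p30-only regions, and that of p42 peaks was 3.74 in shared and 3.09 in p42-only regions. Among the strongest 10% of each list, 673 p30 peaks and 214 p42 peaks had no counterpart in the other line.

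Overlap fell steadily from the strongest to the weakest decile of peaks in both lists. With an equal number of peaks, 96.7% (96.4 to 97.0%) of the p30 peaks of the strongest decile overlapped a p42 peak, against 60.8% in the fifth decile and 35.2% (34.4 to 36.0%) in the weakest. For p42 peaks the shares were 97.9% (97.6 to 98.1%), 72.8% and 46.9% (46.1 to 47.8%). Within a decile the p30 peaks were the less often shared, both with all peaks and with equal numbers. Equal bases were not divided by decile. Over the whole lists the side turned there, with 19822 of 80485 p30 peaks and 59267 of 134650 p42 peaks not shared. With equal numbers the p30 peaks were the wider of the 2 sets, with a median of 474 bp against 375 bp. Width also fell with strength, so that strength and width were not separated. The median went from 1647 bp in the strongest to 310 bp in the weakest decile for p30, and from 1215 to 251 bp for p42.

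**Figure D2:**
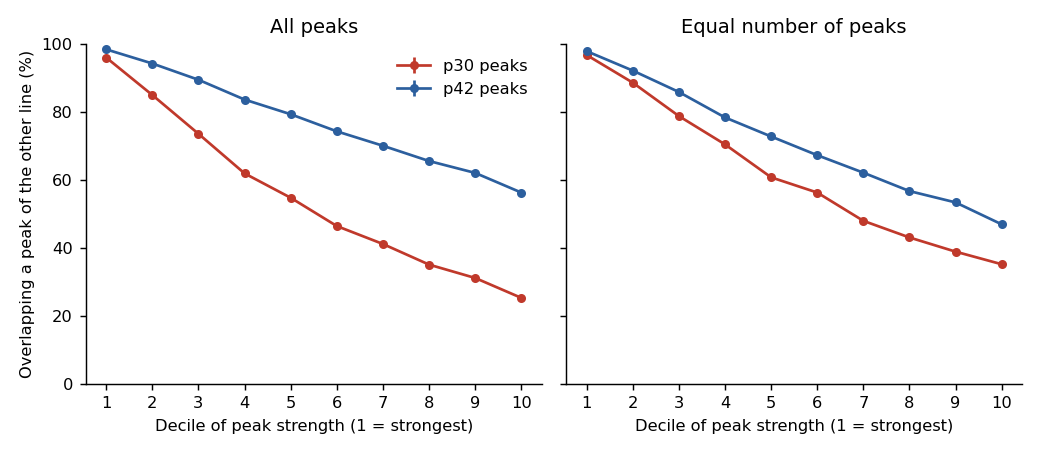
Share of peaks (%) that overlapped a peak of the other line, by decile of peak strength from 1 (strongest) to 10, for p30 (red) and p42 (blue) peaks, with all peaks (left) and with an equal number from each list (right); bars are 95% Wilson intervals, mostly smaller than the points. Both lines start above 95% and fall, to 35.2% for p30 and 46.9% for p42 with equal numbers.

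Many regions of 1 line lay close to a peak of the other. The median gap from a p30-only region to the nearest p42 peak was 1466 bp, and 40.2% of these regions were within 1 kb of one. From a p42-only region to the nearest p30 peak it was 819 bp, and 55.1% were within 1 kb. Regions that stood apart, with a gap over 10 kb, numbered 9829 p30-only (13.0%) and 2935 p42-only (9.62%). Inside the shared regions the lines differed in how the mark was divided into peaks. The p30 peaks covered more bases in 66.1% of shared regions, whereas 13011 shared regions held more p42 than p30 peaks and 4976 held more p30 than p42 peaks. Where the numbers of peaks differed, the mark was thus mostly called in more pieces in p42-expressing cells. Whether the mark itself or only its calling was divided was not tested. Peak strength in the shared regions was only loosely related between the lines, with a Spearman correlation of fold of 0.498 over 83250 regions, given as a description since both values come from the same regions. In 7694 shared regions the peak ranked in the top 10% in both lists, 1196 were in the top 10% in p30- but below the median in p42-expressing cells, and 408 the reverse. The lists differ in length, and with an equal number of peaks these counts were 6895, 751 and 589 of 75405 regions, with a Spearman correlation of 0.483.

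The best-ranked p30-only region outside promoters lay in an intron near *Ano6*, a phospholipid scramblase of platelets and other cells, at chr15:95674376-95674935. Its fold was 8.75 and its rank 1016 in the p30 list, with no H3K27ac or CEBPA peak of either line. The others of the best 5 were near *Sntg1*, *Scaf8*, *Cnn2* and *Zfp386*. The one near *Cnn2*, a calponin of the actin cytoskeleton, had a fold of 8.45 and carried H3K27ac peaks in both lines, treated or not. The one near *Zfp386* lies at the edge of the immunoglobulin heavy chain variable segments described below. None of the 5 held a CEBPA summit of either antibody in either line.

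The 8 best-ranked p42-only regions all lay in the first 50 kb of the assembled sequence of chromosome 9 (chr9:3000001-3050000), far from the nearest protein-coding start, that of *Alkbh8*. There the p42 list held 15 peaks over 28.6 kb, all of them in its top 1% by p-value, though their fold did not pass 3.42. The p30 list held 11 peaks over 8.02 kb with a fold of at most 1.95. The anti-CEBPA lists also had peaks in this stretch, 41 in p30- and 35 in p42-expressing cells, whose fold was at most 5.24. Whether this stretch took reads from copies elsewhere was not tested. Leaving it out removed 8 p42-only regions and no p30-only region, so that the counts of the classes hardly moved. Beyond it, the best-ranked p42-only regions, named after their values were seen, were near *Gm49721*, *Muc17*, *Ak6*, *Atp10d* and *Cd53*. The last, in an intron near *Cd53*, which encodes a tetraspanin of leukocytes, had a fold of 7.32 and H3K27ac peaks in both lines with LPS but in neither line untreated.

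By place, most regions of each class lay in introns, and the p30-only class lay farther from genes than the others. Introns held 64.3% of shared, 60.4% of p30-only and 62.7% of p42-only regions. Between genes lay 16.4% (16.2 to 16.7%) of shared, 21.2% (20.9 to 21.5%) of p30-only and 17.1% (16.7 to 17.5%) of p42-only regions. Promoters held 11.2%, 10.1% and 10.3%, where a promoter began 1000 bp before an annotated start and ended 100 bp after it. The median distance to a protein-coding start was 20144 bp for shared, 27234 bp for p30-only and 19805 bp for p42-only regions, and 26.8%, 34.0% and 25.3% lay over 50 kb away. The p42-only regions therefore resembled the shared ones in distance from genes. The shift of p30-only regions outward was of the same size with an equal number of peaks, where 21.2% lay between genes against 17.0% of p42-only regions.

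Around active starts both lines showed the depletion known for H3K4me1, but the trough was wider in p42-expressing cells. Of 21584 protein-coding starts, 10047 had H3K27ac in both lines within 500 bp. With an equal number of peaks, H3K4me1 covered 6.15% of these starts in p30- (5.70 to 6.64%) and 4.65% in p42-expressing cells (4.25 to 5.08%). Coverage rose to 20.1% at 1000 bp upstream and 27.8% at 1700 bp downstream in p30-expressing cells. In p42-expressing cells the highest values were 17.7% at 1700 bp upstream and 25.5% at 2300 bp downstream. The flanking H3K4me1 of the p42 line thus stood farther out. With equal bases the p30 maxima moved out, to 1500 bp and 2200 bp, and fell to 14.9 and 21.9%, so that the distance depended on how many p30 peaks were taken. For the 11537 other starts, coverage at the start was 1.98% and 1.29%.

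H3K27ac, which was not used to class the regions, followed the line that held H3K4me1. Of the shared regions, 65.3% overlapped an H3K27ac peak of untreated p30-expressing cells and 62.9% one of untreated p42-expressing cells. Of the p30-only regions these shares were 28.5 and 22.8%, a difference of 5.66 points (5.41 to 5.91). Of the p42-only regions they were 32.8 and 38.2%, a difference of -5.44 points (-5.91 to -4.98). With equal numbers of peaks for both marks the differences were 1.51, 5.40 and -5.71 points. Most regions of 1 line therefore lacked H3K27ac in either line, and among those that had it in only 1, that line was more often the line with H3K4me1.

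The difference grew with the width of the region. Under 300 bp, 23.9% of p30-only regions had H3K27ac in p30- and 20.2% in p42-expressing cells, while for the 754 p30-only regions of 1200 bp or more the shares were 54.8 and 33.6%. Under 300 bp, 29.4% of p42-only regions had it in p30- and 32.8% in p42-expressing cells, and for the 127 of 1200 bp or more the shares were 51.2 and 83.5%. The widest p42-only regions were thus mostly acetylated in the p42 line. Among those 127, H3K27ac was seen in p42-expressing cells alone in 42 regions and in p30-expressing cells alone in 1.

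With LPS, the lists of p30-expressing cells held H3K27ac in 67.8% of shared, 30.0% of p30-only and 33.9% of p42-only regions, and those of p42-expressing cells in 57.9, 19.3 and 32.1%. The p42 LPS list was the shorter one, with 107114 peaks against 142385. With equal numbers the shares at p42-only regions were 31.5 and 33.6%, so that the side on which they were higher turned with the number of peaks. Regions that carried H3K4me1 but no untreated H3K27ac peak of either line were then taken, those at promoters included. With LPS and equal numbers, H3K27ac appeared in 11.3% (p30) and 6.21% (p42) of the shared ones. For the p30-only ones the shares were 5.75 and 2.28%, and for the p42-only ones 5.11 and 5.02%. With equal numbers the absence of untreated H3K27ac was also judged by the cut lists. With all peaks the shares were 15.6 and 5.90% for shared, 7.82 and 2.12% for p30-only, and 7.11 and 4.75% for p42-only regions.

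**Figure D3:**
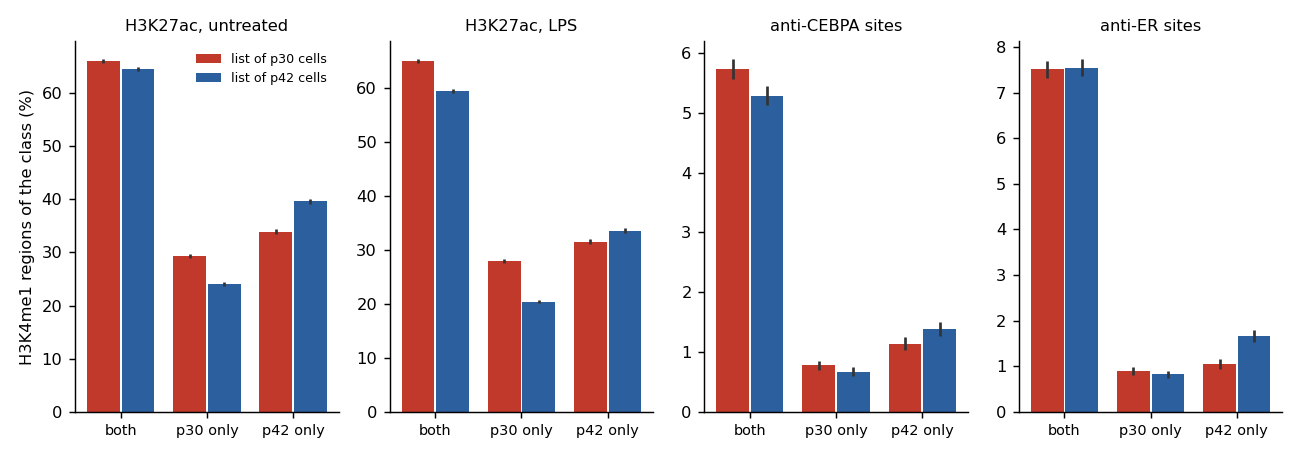
Share of H3K4me1 regions of each class (both lines, p30 only, p42 only) that held an H3K27ac peak, untreated or with LPS, or a CEBPA summit by either antibody, in the list of p30- (red) or p42-expressing cells (blue), with equal numbers of peaks; vertical axes in %, each panel with its own scale from 0, error bars 95% intervals for counting error. In untreated cells the p30-only class is higher for p30 H3K27ac and the p42-only class higher for p42 H3K27ac. With regions of all widths counted, the share with a CEBPA site is highest in the shared class, whose regions are wider.

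Most CEBPA sites had their summit outside H3K4me1 regions of either line, though the share depended on the antibody. Of 31823 anti-CEBPA sites of p30-expressing cells, 5591 (17.6%) had their summit in an H3K4me1 region, 4707 of them in a shared one. Of 47489 sites of p42-expressing cells, 7578 (16.0%) did, 6244 of them in a shared one. For anti-ER the shares in any region were 30.4% of p30 and 32.3% of p42 sites. For sites found with both antibodies they were 24.3 and 30.1%. H3K4me1 within 1 kb of a site was more frequent and is given below. Seen from the regions, and without regard to their width, shared ones held a site more often than those of 1 line. An anti-CEBPA summit of p30-expressing cells lay in 5.37% of shared regions and one of p42-expressing cells in 6.99%. The shares were 0.704 and 0.918% for p30-only regions and 1.12 and 2.07% for p42-only regions. Since shared regions are wide, the density counts as well. It was 49.1 and 65.1 summits per Mb in shared, 19.3 and 25.3 in p30-only, and 37.4 and 67.6 in p42-only regions. Per Mb the p42-only class thus came close to the shared one for p42 sites. At like width the order of p42-only and shared regions turned for p42 sites with all peaks. Under 300 bp, 0.903% of p42-only and 0.785% of shared regions held one, and at 1200 bp or more 23.6 and 15.8%. With equal numbers these shares were 0.541 and 0.550%, and 18.6 and 11.4%. For p30 sites with all peaks they were 0.540 and 0.620%, and 12.6 and 12.4%. At each width p30-only regions held a site of either line less often than shared ones. The anti-ER lists held 33952 sites in p30- and 23210 in p42-expressing cells. Which line had the more sites in the shared and p30-only classes turned round with equal numbers of sites and with anti-ER. In p42-only regions the p42 sites were ahead in all of these comparisons, and the p30 share minus the p42 share was -0.943 points with anti-CEBPA, -0.249 points with equal numbers, -0.4095 points for sites found with both antibodies and -0.0721 points with anti-ER. The last difference had an interval of -0.195 to 0.0508 points.

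Taken from the CEBPA sites, H3K4me1 differed most where p42 bound alone. Sites were used that were found with both antibodies in a line and lay outside promoters, 11485 shared by the lines, 825 of p30 alone and 1113 of p42 alone. With an equal number of H3K4me1 peaks, 31.6% (29.0 to 34.4%) of the p42-alone sites had H3K4me1 within 1 kb in p30- and 51.8% (48.9 to 54.8%) in p42-expressing cells. Of these sites, 249 had it in p42-expressing cells only and 24 in p30-expressing cells only. At the p30-alone sites it was found in 63.6 and 60.0%, with 71 sites marked in p30- and 41 in p42-expressing cells only. H3K4me1 was thus common at p30-alone sites in both lines. At these sites the difference was 3.64 points (1.13 to 6.14), and with equal bases it was -7.27 points. At shared sites it was found in 43.1 and 47.5%.

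At the CEBPA summit itself the lines differed in another way. At shared sites, coverage by H3K4me1 peaks rose toward the site to nearly the same height in both lines, 25.6% in p30- and 26.1% in p42-expressing cells 200 to 300 bp from the summit. At the summit it was 22.6% (21.9 to 23.4%) in p30- and 16.0% (15.4 to 16.7%) in p42-expressing cells. The value at the summit was thus 88.3% of the flanks in p30- and 61.3% in p42-expressing cells. Relative to the flanks, H3K4me1 peaks therefore covered the binding site less often where p42 was expressed. The ratio in p30-expressing cells stayed between 87.9 and 89.9% with all peaks, equal bases and the summit positions of p30. For H3K27ac the values were 91.9 and 84.6%, a smaller difference to the same side.

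**Figure D4:**
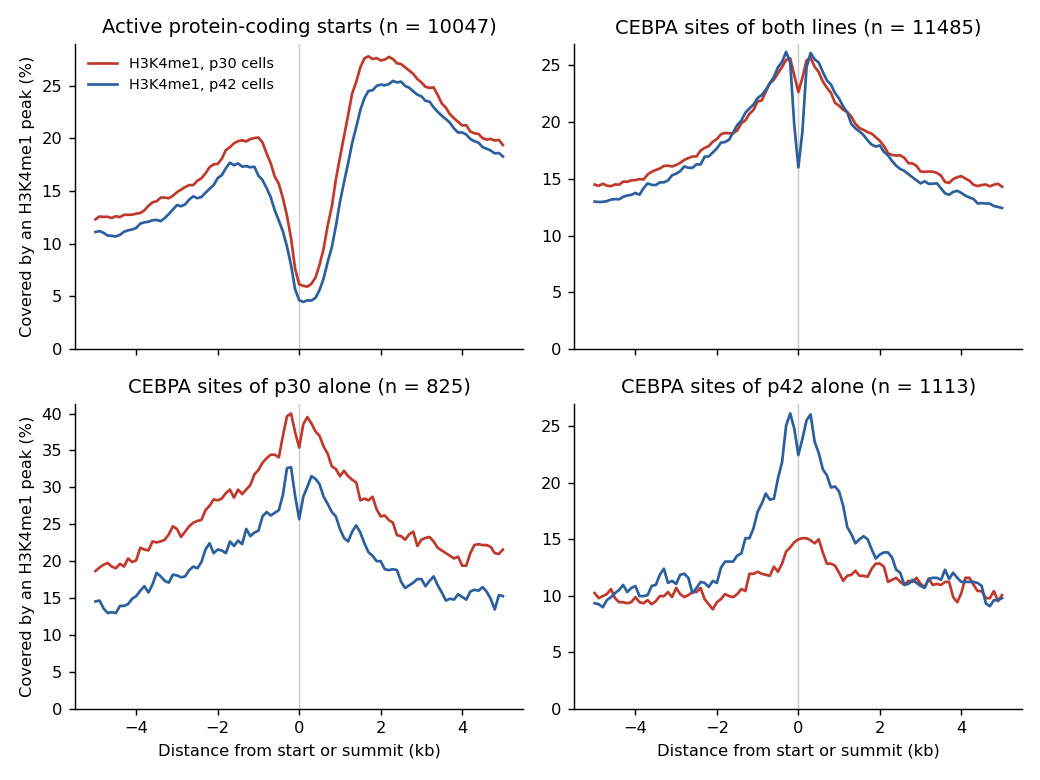
Share of positions (%) covered by an H3K4me1 peak of p30- (red) or p42-expressing cells (blue) by distance (kb) from 10047 active protein-coding starts and from the summits of CEBPA sites shared by both lines (n = 11485), of p30 alone (n = 825) and of p42 alone (n = 1113), with equal numbers of peaks. At shared sites the blue line drops to 16.0% at the summit and the red line to 22.6%, from like heights of 26.1 and 25.6%, and at p42-alone sites the blue line stands above the red.

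Coverage of the summit was then counted site by site. Of the 4590 shared sites with H3K4me1 within 1 kb in both lines, the summit lay under a peak in 54.9% in p30- and in 36.3% in p42-expressing cells, a difference of 18.6 points (17.0 to 20.1). At 1167 sites it was covered in p30-expressing cells only and at 314 in p42-expressing cells only. With all peaks the difference was 19.3 points and with equal bases 18.4 points. A peak on both sides of the summit was not required, so that sites with a peak on 1 side only were counted too. The p30 peaks were also wider, with a median of 474 bp against 375 bp for p42. With equal bases the medians were 667 and 375 bp. How far peak width enters these differences was not tested. At p30-alone sites the difference was 15.2 points (10.8 to 19.6), and at p42-alone sites it was -9.45 points (-15.6 to -3.30). At shared sites the same measure of H3K27ac was -4.32 points (-5.48 to -3.16), to the other side. The H3K4me1 chromatin was digested with micrococcal nuclease, and whether the extent of digestion differed between the lines was not tested.

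In letters, the classes were nearly alike. The CEBP consensus TTGCNNAA, searched on both strands in the 500 bp around the summit of regions outside promoters, was found in 19.5% (19.2 to 19.8%) of shared, 18.2% (17.9 to 18.5%) of p30-only and 20.8% (20.3 to 21.3%) of p42-only regions. Over all such regions it was 19.2%, and over 500 bp around all protein-coding starts 15.9%. Adding the form TTACNNAA gave 36.2, 34.7 and 38.5%. The p42-only class thus held the consensus a little more often than the p30-only class. Where a region of either line-only class held an anti-CEBPA summit, the consensus was there in 45.9 to 50.3% of regions, and where it held none, in 17.9 to 20.5%. At the CEBPA summits, in 200 bp, either form was found in 73.1% of shared, 50.2% of p30-alone and 65.8% of p42-alone sites. Around the summits of all H3K4me1 regions outside promoters it was 14.6%. These sites were not matched for strength.

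Other consensus sequences differed by fewer percentage points. GAGGAAGT, bound by PU.1, a master factor of myeloid cells, was found in 5.40% of shared, 4.39% of p30-only and 4.00% of p42-only regions, and 4.77% of all. TGTGGTT, bound by RUNX factors, was in 13.6, 13.1 and 12.5%, and 13.2% of all. Both sequences were thus least frequent in p42-only regions. For RUNX the intervals of shared and p30-only regions met. TGANTCA, bound by AP-1, was in 14.8, 14.6 and 14.6%, beside 13.5, 13.4 and 13.8% for the reversed letters ACTNAGT. The AP-1 sequence did not separate the classes. The composite CEBP:ATF4 sequence TGATGCAA was in 1.34, 1.32 and 1.53%.

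Along the chromosomes the surplus of p30-only regions was uneven. With an equal number of peaks, the number of p30-only for each p42-only region ran from 0.971 on chromosome 19 to 1.58 on chromosome 14. Chromosome X held few regions, 5.31 per Mb, with 309 p30-only and 308 p42-only. In 1 Mb windows, p30 covered more bases in 1424 and p42 in 535 of 2642 windows, and with equal bases in 758 and 1171. The windows below kept their direction with equal bases. Those to the side of p42 could not turn there, since only p30 peaks were removed.

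The widest gap to the side of p30 was in the immunoglobulin heavy chain locus. At chr12:115000001-116000000, in the variable segments of that chain, H3K4me1 covered 322 kb in p30- and 200.1 kb in p42-expressing cells, and in the window before it 137 and 41.6 kb. Over the whole stretch of variable segments, with 194 annotated genes and pseudogenes, the p30 list had 653 peaks on 472 kb and the p42 list 421 peaks on 239 kb. Of these peaks 80 and 57 were in the top 1% of their list. The mark was thus dense there in both lines and denser in p30-expressing cells. With an equal number of peaks the stretch held 321 shared, 269 p30-only and 20 p42-only regions. H3K27ac in untreated cells covered 114.8 kb and 83.5 kb. These segments are near-copies of one another, so that the place of a read among them is uncertain.

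Next came chr4:7000001-8000000, a window between *Tox*, a factor of T cell and innate lymphoid development, and *Car8*, with no protein-coding start of its own. It held 131 kb in p30- and 10.5 kb in p42-expressing cells, in 21 shared regions, 191 p30-only regions and 1 p42-only region. Its H3K27ac covered 32.8 and 6.13 kb. Nearly the whole of this domain was thus called in 1 line. Its anti-CEBPA sites numbered 23 in p30- and 31 in p42-expressing cells. The whole lists held 31823 and 47489 such sites, so that these numbers are not to be compared directly. The cluster of *Il1r1*, *Il1rl1*, *Il18r1* and *Il18rap*, receptors of the interleukin-1 family, in chr1:40000001-41000000, had 295 and 182 kb. The window of *Ikzf1*, which encodes the lymphoid factor Ikaros, and *Ddc*, in chr11:11000001-12000000, had 283 and 176 kb, and that of *Filip1l*, *Cmss1* and *Col8a1*, in chr16:57000001-58000000, 249 and 139 kb. The window that begins beyond *Car2* and holds the *Sirpb1* genes, chr3:15000001-16000000, had 109 and 24.9 kb.

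The widest gaps to the side of p42 were smaller. At chr3:27000001-28000000, which holds *Fndc3b* and *Tnfsf10*, a death receptor ligand, H3K4me1 covered 107 kb in p30- and 141 kb in p42-expressing cells. At chr5:3000001-4000000, with *Cdk6*, a cell cycle kinase of hematopoietic progenitors, the values were 92.5 and 119.9 kb. At chr8:12000001-13000000, with *Atp11a* and *Mcf2l*, they were 10.3 and 35.6 kb, in 14 shared, 4 p30-only and 43 p42-only regions. The window of *Nt5e*, which encodes the ectonucleotidase CD73, had 31.5 and 53.4 kb, in 34 shared, 11 p30-only and 51 p42-only regions.

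By gene, the bases under H3K4me1 within 50 kb of the start were compared for 21584 protein-coding genes with an equal number of peaks. At least 5 kb more was found in p30-expressing cells for 2316 genes (10.7%) and in p42-expressing cells for 431 genes (2.00%). With equal bases these counts were 898 (4.16%) and 1502 (6.96%), so that the side of the surplus again turned. The genes at either end kept their side with 20 kb or 100 kb around the start and with equal bases. This held for 10 of 10 p30-leading and 10 of 10 p42-leading genes. The same direction with all peaks was a condition of their choice. The p42 list was the same in every setting, and equal bases only removed p30 peaks. The p42-leading genes could therefore not turn with equal bases, which tried the p30-leading genes alone. A gene name stands here for a locus, since the mark does not say which gene a region acts on.

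The p30-leading loci were led by *Ddc*, an aromatic amino acid decarboxylase, with 57.9 kb in p30- and 20.6 kb in p42-expressing cells, in 23 shared, 26 p30-only and 0 p42-only regions. *Pou2f1*, the octamer factor OCT1, had 56.2 and 20.9 kb, and *Gimap6*, a GTPase of lymphocytes, 55.1 and 21.5 kb. *Mrps23*, of the mitochondrial ribosome, had 41.9 and 11.5 kb. The mark was present at all of these loci in both lines and spread farther in p30-expressing cells. *Rgs1*, a regulator of G protein signalling in leukocytes, had 54.9 and 25.4 kb. *Mrc1*, the macrophage mannose receptor, had 45.9 and 16.6 kb, and *Car2*, carbonic anhydrase 2, had 41.5 and 12.6 kb, in 11 shared, 27 p30-only and 0 p42-only regions. The others were *Sema4d*, *Snx9* and *Timm8a2*, where the p30 values ran from 56.4 to 70.1 kb and the p42 values from 26.2 to 41.3 kb.

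The p42-leading loci were led by *Pfkfb3*. This gene, which sets the level of a potent activator of glycolysis, had 15.9 kb in p30- and 40.4 kb in p42-expressing cells, in 19 shared, 3 p30-only and 46 p42-only regions. *Papss2*, which makes the donor for sulfation, had 8.76 and 32.6 kb, in 16 shared regions, 1 p30-only and 41 p42-only regions. *Acod1*, the LPS-induced enzyme that makes itaconate, had 12.9 and 28.3 kb, in 17 shared, 3 p30-only and 22 p42-only regions. At each of these loci p42-only regions outnumbered the shared ones. *Lyst*, a regulator of lysosomal traffic, had 24.6 and 42.2 kb, *Nedd9*, an adhesion adaptor, 25.9 and 41.7 kb, and *Stab1*, a scavenger receptor of macrophages, 13.6 and 29.9 kb. *Tmco6* had 15.1 and 30.3 kb. It adjoins *Cd14*, the co-receptor for LPS, whose own window had 15.0 and 29.8 kb. *Cnga4*, a subunit of a cyclic nucleotide-gated channel, had 7.26 and 23.0 kb, and *Crygb*, a lens crystallin, had 4.04 and 19.02 kb.

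**Figure D5:**
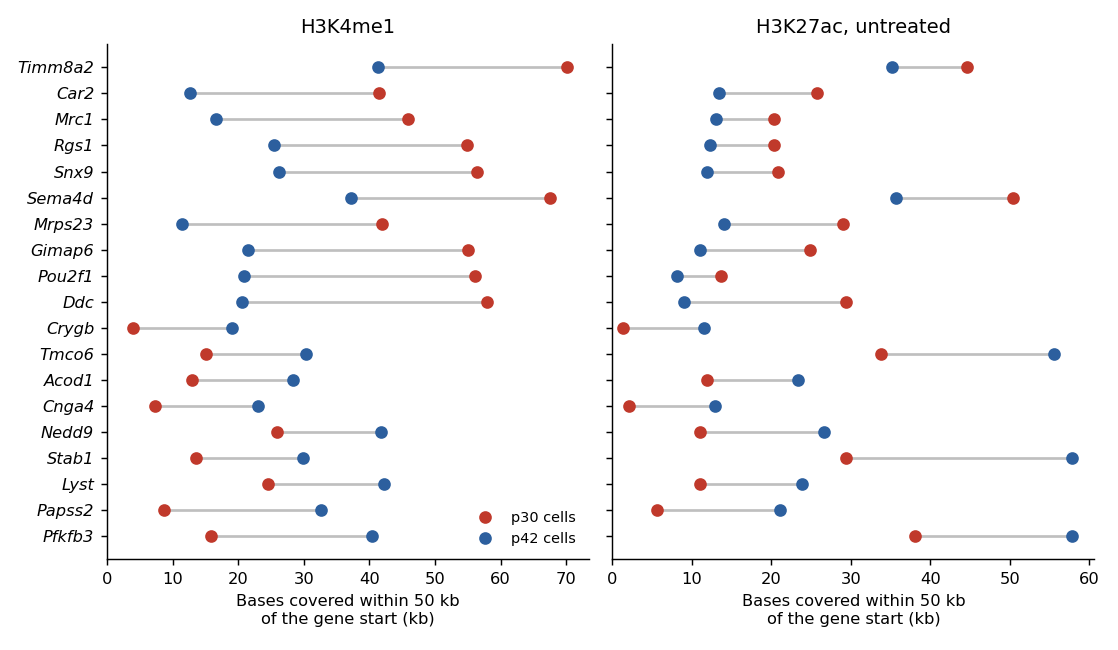
Bases (kb) under H3K4me1 peaks (left) and under untreated H3K27ac peaks (right) within 50 kb of the start of the 10 p30-leading genes (*Timm8a2* down to *Ddc*) and 9 of the 10 p42-leading genes (*Crygb* down to *Pfkfb3*), in p30- (red) and p42-expressing cells (blue), with equal numbers of peaks of each mark. The genes were chosen by H3K4me1, and H3K27ac lies to the same side at all 19 genes shown, from 29.4 against 9.05 kb at *Ddc* to 38.1 against 57.8 kb at *Pfkfb3*.

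H3K27ac, measured apart from the choice of these genes, lay to the side of H3K4me1 at all 20 leading loci, untreated and with LPS. At *Ddc* it covered 29.4 kb in untreated p30- and 9.05 kb in p42-expressing cells, and at *Papss2* 5.55 and 21.1 kb. At *Acod1* it covered 11.9 and 23.4 kb untreated, and 20.2 and 35.8 kb with LPS. Over the 2316 genes with 5 kb or more in p30-expressing cells, 85.4% had more H3K27ac in untreated p30-expressing cells, and over the 431 genes to the side of p42, 88.2% had more in p42-expressing cells. Over the 12508 marked genes with a difference under 5 kb, 44.6% had more H3K27ac in p30- and 52.5% in p42-expressing cells. Both marks thus stood to the same side at most of the genes past 5 kb. Over 15255 marked genes the differences of the marks had a Pearson correlation of 0.58 and a Spearman correlation of 0.51, given as a description, since neighbouring genes share regions and both marks come from the same 2 lines.

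CEBPA sites were counted in the same windows with equal numbers of anti-CEBPA sites. The mean over all genes was 1.53 sites of p30 and 1.43 of p42. At the genes with more H3K4me1 in p30-expressing cells it was 2.24 and 1.89, and at those with more in p42-expressing cells 3.04 and 3.40. Loci to the side of p42 thus held more sites of both isoforms. The 10 p42-leading loci had a mean of 4.0 and 5.1 sites, with more p42 sites at 7 and more p30 sites at 0. The 10 p30-leading loci had 2.6 and 1.8 sites, with more p30 sites at 6 and more p42 sites at 2. At *Ddc* there was 1 site in each line, although its H3K4me1 differed most.

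Lists of genes from the biology of these cells were then read against the background of 10.7% of genes with at least 5 kb more in p30- and 2.00% with at least 5 kb more in p42-expressing cells. Any surplus at all was found in p30-expressing cells for 44.5% and in p42-expressing cells for 26.2% of all genes with equal numbers, for 23.1 and 46.1% with equal bases, and for 53.8 and 17.8% with all peaks. These shares include unmarked genes, whereas most members of the lists were marked. Of the 15255 genes with any H3K4me1 with equal numbers, 9605 were higher in p30- and 5647 in p42-expressing cells, and 2316 and 431 passed 5 kb. With equal bases 4981 and 9961 of 14945 marked genes were higher. The counts of a list are to be read beside these counts of marked genes. For the heptad of stem and progenitor factors, *Tal1*, *Lyl1*, *Lmo2*, *Gata2*, *Runx1*, *Fli1* and *Erg*, all 7 had more in p30-expressing cells and 5 passed 5 kb. *Tal1*, the factor that starts hematopoiesis, had 22.3 and 12.3 kb, and *Lmo2*, its bridging partner, 44.0 and 33.5 kb. All 7 kept this side with equal bases. With all peaks they could not turn, since p30 peaks were only added. Of 16 leukemia and p30 target genes, 8 were higher in p30- and 7 in p42-expressing cells, with equal bases 4 and 11, and with all peaks 11 and 4. *Meis1*, a homeobox partner of HOXA9, had 19.5 and 6.32 kb, *Bcl2*, the survival factor, 32.5 and 26.02 kb, and *Cd34* 60.0 and 41.6 kb, whereas *Cdk6* had 26.1 and 37.2 kb and *Nt5e* 19.3 and 31.9 kb. The side of the list thus turned with the number of peaks.

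Among 19 factors of myeloid fate, 11 were higher in p30- and 7 in p42-expressing cells, and 5 and 1 passed 5 kb. With equal bases the list turned to 6 and 11, of which 1 and 4 passed 5 kb, and with all peaks it stood at 13 and 5. *Cebpa* itself had 41.4 kb in p30- and 31.2 kb in p42-expressing cells, and *Irf8*, a monocyte and dendritic cell factor, 35.4 and 26.2 kb. *Cebpb*, the CEBP factor of emergency granulopoiesis, had 36.8 and 34.3 kb. *Gfi1*, a repressor needed by neutrophils, had 44.0 and 50.8 kb, and *Spi1*, which encodes PU.1, 28.7 and 30.0 kb. The median difference over the list was 0.183 kb. Of 16 growth factor and cytokine receptors, 9 were higher in p30- and 6 in p42-expressing cells, with 7 and 2 past 5 kb, and with equal bases 7 and 8, with 3 and 4 past 5 kb. *Il1rl1*, the receptor of interleukin-33, had 75.1 and 54.6 kb, and *Flt3*, a receptor of early progenitors, 40.1 and 28.7 kb. *Csf3r*, the receptor for the granulocyte growth factor G-CSF, had 17.8 and 22.9 kb, and *Cxcr4*, the marrow retention receptor, 26.8 and 32.4 kb.

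The lists of mature lineages followed. Of 17 neutrophil granule and effector genes, 8 were higher in p30- and 7 in p42-expressing cells, with a median difference of 0. With equal bases they were 4 and 11, with a median difference of -0.801 kb, and with all peaks 9 and 6. *Mpo*, the myeloperoxidase of primary granules, had 24.2 and 16.6 kb, whereas *Lyz2*, lysozyme, had 6.35 and 12.2 kb. Of 12 erythroid and megakaryocyte genes 7 were higher in p30- and 4 in p42-expressing cells, of 10 mast cell and basophil genes 5 and 1, and of 14 lymphoid genes 10 and 1. Only *Cd4* of the lymphoid list and *Cpa3* of the mast cell list passed 5 kb. With equal bases these 3 lists stood at 4 and 7, 2 and 4, and 6 and 5.

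The inflammatory lists were divided. Of 15 AP-1 family genes, 11 were higher in p30- and 4 in p42-expressing cells, with 6 and 0 past 5 kb, and with equal bases 7 and 8. *Atf3*, a stress-induced member, had 46.4 and 26.8 kb, *Batf3*, a dendritic cell member, 48.6 and 30.6 kb, and *Fos*, the immediate early partner of JUN, 50.6 and 44.6 kb. *Fosl1* had 5.35 and 9.91 kb. Of 14 NF-κB factors and inhibitors, 10 were higher in p30- and 4 in p42-expressing cells. *Tnfaip3*, the inhibitor A20, had 30.3 and 18.3 kb, and *Nfkbiz* had 15.9 and 25.99 kb. With equal bases the list stood at 7 and 7.

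Of 19 genes of the LPS receptor and its signalling, 8 were higher in p30- and 11 in p42-expressing cells, with 1 and 2 past 5 kb. With equal bases they were 4 and 15, and with all peaks they turned to 12 and 7. *Cd14* had 15.0 and 29.8 kb, and *Tlr2*, a receptor for bacterial lipoproteins, 10.6 and 16.3 kb. *Tlr4*, the LPS receptor itself, had 0 kb in p30- and 2.77 kb in p42-expressing cells. *Tab2*, an adaptor of the kinase TAK1, had 41.4 and 26.3 kb. Among 18 inflammatory chemokines the counts were 8 and 9, with 3 past 5 kb on each side. With equal bases they were 3 and 14, with 2 and 5 past 5 kb, and with all peaks 8 and 9, with 5 and 0 past 5 kb. *Cxcl5*, *Cxcl3* and *Cxcl1*, neighbouring chemoattractants of neutrophils, had 12.2, 10.5 and 3.04 kb in p30- and 18.0, 16.7 and 8.23 kb in p42-expressing cells. *Ccl22*, *Ccl17* and *Ccl5*, which attract lymphocytes, had 21.7, 23.4 and 45.1 kb in p30- and 9.88, 11.9 and 36.6 kb in p42-expressing cells. These 6 are the chemokine genes past 5 kb with equal numbers, and neighbours among them share regions, so that they are not independent.

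Of 18 inflammatory cytokines, 10 were higher in p30- and 8 in p42-expressing cells, and with equal bases this turned to 7 and 11. *Il12a* had 48.7 and 35.2 kb, *Osm* 36.4 and 27.6 kb, and *Il1b*, a central inflammatory cytokine, 1.52 and 5.39 kb. Of 19 interferon-stimulated genes found, out of 20, 14 were higher in p30- and 3 in p42-expressing cells, with 4 and 0 past 5 kb, and with equal bases 9 and 8. *Irf1*, an activator of interferon responses, had 39.5 and 27.8 kb, and *Mx1*, an antiviral GTPase, 15.0 and 3.49 kb. *Cxcl10*, a chemokine induced by interferon, had 5.80 and 8.95 kb, in 5 shared, 0 p30-only and 8 p42-only regions. Of 14 stress and growth arrest genes 8 were higher in p30- and 4 in p42-expressing cells, and with equal bases 5 and 7. *Gadd45a*, induced by DNA damage and other stress, had 33.5 and 28.5 kb, *Ddit4* 48.2 and 37.2 kb, and *Hmox1*, heme oxygenase, 14.5 and 19.3 kb. The acetylation of the genes followed in the study was mixed. At *Fos*, *Cebpb* and *Gadd45a* H3K27ac stood to the other side from H3K4me1, with 17.8, 40.2 and 14.2 kb in untreated p30- and 23.1, 47.5 and 21.8 kb in untreated p42-expressing cells. With equal bases of H3K4me1 this remained so at *Fos*, while at *Cebpb* (31.6 and 34.3 kb) and *Gadd45a* (27.3 and 28.5 kb) H3K4me1 stood to the side of p42 too. At *Cxcl10* it was to the same side, with 4.17 and 7.86 kb.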

How the data were processed

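H3K4me1 ChIP-seq was made from chromatin digested with micrococcal nuclease, in 2 samples of each line. Per the labels and the study's methods, reads were trimmed with Trim Galore 0.6.6, aligned to mm39 with Bowtie2 and cleared of duplicates marked by Picard, after which MACS2 called narrow peaks relative to input at q under 0.05. The deposited lists give for each peak a fold enrichment over the local background and the −log10 p-value and −log10 q-value at its summit, all written by the peak caller the authors ran. The H3K4me1 and H3K27ac lists were called on pooled samples, and the anti-CEBPA and anti-ER lists on 1 sample each. The lists hold no read totals, so the depth is unknown, and the number of reads behind a region was not analysed here. With 1 list for each group there is no test, and the study's methods describe none for H3K4me1.

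Peaks were ranked by −log10 p, merged, placed and counted in Python 3.11.15 by means of pandas 2.3.3, numpy 2.4.6, pysam 0.24.0 and scipy 1.17.1, and plotted with matplotlib 3.10.9. Places and names came from a GENCODE annotation of GRCm39, and sequences from a genome of that build. A place was that of the summit of the strongest peak. An active start had untreated H3K27ac of both lines within 500 bp. Shares have Wilson intervals, and paired differences have normal-approximation intervals. The scripts were tested on simulated peak lists.

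The regions, lists and tests were chosen with earlier results of these data known. Genes were named by rule. These were the 10 loci of each direction with the largest difference in bases within 50 kb of the start. Their direction had to be the same with all peaks, and their starts at least 100 kb apart. Up to 3 members of each list in each direction were named as well. The nearest genes of the 5 best-ranked line-only regions outside promoters and genes the study followed were also named. *Tlr4*, *Erg*, the genes of the 1 Mb windows and those beside the printed sequences were named outside this rule, after their values were seen. Alternatives were other peak numbers, q thresholds, merging distances, promoter and motif windows, locus sizes and CEBPA lists. 1 of the p42-leading loci is not reported here by name, though counts over the 10 include it. The ATF4 list of human KO-52 cells was not used.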

Additional observations from a re-analysis of the deposited data

How the results depend on the processing

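No paired analysis was possible because the lists are pooled, and for the same reason no replicate could be left out. The alternatives with equal bases for loci and windows, without the start of chromosome 9, at CEBPA summits, by fold, for peak ranks with equal numbers and with the A form of the consensus were chosen after seeing the data. Against 83250 shared, 75580 p30-only and 30525 p42-only regions, q under 1e-05 gave 44436, 41577 and 18363, merging up to 500 bp apart gave 52169, 44863 and 15977, and reciprocal overlap of 50% gave 48902, 119126 and 85748. Strict presence with lenient absence gave 25110 p30-only and 8838 p42-only regions, and equal bases gave 19822 and 59267. The p30-only count minus the p42-only count, 45055 with all peaks, was 13029 with equal numbers, 23214 with q under 1e-05, 16272 with strict presence and 28886 with merging up to 500 bp, and it reversed to -39445 with equal bases.

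The p30-only minus p42-only promoter share moved from -0.163 to -2.68 points with promoters of 2500 bp. H3K27ac differences between the lists moved with equal numbers from 2.37 to 1.51 points in shared and from 5.66 to 5.40 points in p30-only regions. For anti-CEBPA sites the p30 minus p42 share of shared regions was -1.63 points. It was -2.42 within 500 bp and -0.466 with both antibodies, and reversed to 0.447 with equal numbers and 2.64 with anti-ER. For p30-only regions it was -0.214 points, then -0.724 within 500 bp, and reversed to 0.107 with equal numbers, 0.505 with anti-ER and 0.0185 with both antibodies. For p42-only regions it was -0.943 points, then -0.249 with equal numbers, -3.94 within 500 bp, -0.0721 with anti-ER and -0.4095 with both antibodies.

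Genes with 5 kb or more in p30-expressing cells numbered 2316, and 686 with 20 kb, 4331 with 100 kb and 898 with equal bases. Those in p42-expressing cells numbered 431, and 132, 834 and 1502, with 234 for all peaks. The first count minus the second was 1885, and 554, 3497, 3054 with all peaks, and -604 with equal bases, a reversal. The CEBP consensus share of p42-only minus p30-only regions was 2.63 points in 500 bp, 0.849 in 200 bp and 4.21 in 1000 bp. The p30 minus p42 value of H3K4me1 at shared CEBPA summits, in percent of the flanks, was 27.03 and ran from 26.8 to 28.7 with all peaks, equal bases and the summits of p30. Apart from these constructions, which change the peaks, widths or lists used, the cause of the moves was not tested.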
